A study of Mus musculus with 4 samples.

Results

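The complement and acute-phase smooth muscle cells of mouse atherosclerotic plaques were defined as the 180 cells, of 2431 plaque cells in all, with the highest joint level of *C3*, *Lcn2*, *Cp*, *Saa3*, *Abi3bp*, *C4b* and *Cxcl12*. The score that ranked the cells was the mean over these 7 genes of log2(value + 1), where the value of a gene is its unique molecular identifiers (UMIs, each marking 1 captured RNA molecule) per 10000 UMIs of the cell. The members were thus chosen by measured values, and the levels of the 7 genes in them describe the choice and are no finding. Of the 180 members, 88 came from *ApoE-/-* plaques and 92 from *Trf2 T188A/ApoE-/-* plaques.

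Single-cell RNA-seq with the 10x Chromium 3′ method had been run on plaques micro-dissected from the aortic root, the aortic arch and the carotid arteries. Mice labelled *ApoE-/-* carried Myh11-CreERt2, Confetti and the *ApoE* deletion, and gave 1502 cells with a median of 22765.5 UMIs. Mice labelled *Trf2 T188A/ApoE-/-* carried Sm22a-Trf2T188A in addition and gave 929 cells with a median of 24377 UMIs. Both genotypes were C57Bl/6, received 10 tamoxifen injections over 2 weeks from 6 weeks of age and, after 1 week of rest, a high fat diet for 14 weeks. What both share is therefore the loss of *ApoE*, which makes mice prone to atherosclerosis, the diet, tamoxifen, and a Cre recombinase driven by the *Myh11* promoter that switches on a fluorescent Confetti protein in vascular smooth muscle cells (VSMCs) and their progeny. Only males express this Cre. The authors kept only plaque clusters in which Confetti was expressed, so reporter shares and the markers of other cell types below also reflect that choice. The mutant TRF2, a protein that protects telomeres, is driven by a minimal *Sm22a* promoter, meant to direct it to VSMCs. The other 2 libraries of the series came from ligated carotid arteries, without the adventitia, of wild-type control (4967 cells) and Sm22a-Trf2T188A (5392 cells) male C57Bl/6 mice, 28 days after surgery. Neither the *ApoE* deletion nor the reporter is listed for those mice.

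Each genotype had 1 library in each experiment, and the number of animals pooled in a library is not given. Differences between genotypes and differences between libraries cannot be told apart, the values below have no replicates, so nothing could be tested across animals. Intervals are 95% intervals of counting error only, exact Poisson for summed UMIs, exact Clopper-Pearson for shares, and by the delta method for log2 ratios, while a count of 0 is given the limit that 3 counts would set. Log2 ratios were taken between mean values with 1 added to each mean, a scale that understates the change of genes with low values.

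VSMCs of the healthy arterial wall contract, and in plaques many of their progeny lose the contractile programme and take up matrix-producing, inflammatory or cartilage-like programmes. Complement is a cascade of plasma and tissue proteins that tag particles and cells for removal, and C3 is the protein on which all its activation routes converge. Acute-phase proteins are secreted in response to inflammatory cytokines, best known from the liver, and several bind iron, copper or lipids.

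The scores of the members ran from 4.55 down to 2.2251, with a median of 2.69, against a median of 0.463 in the other plaque cells. No gap in this score separated members from the rest, so by the score they are the upper end of a range. Whether they form a type of their own cannot be read from the score that chose them. The lowest member, an *ApoE-/-* cell, had a score of 2.2251 and the highest cell outside had 2.2246. Within 0.1 of the lowest member's score there were 25 members and 29 cells outside, and within 0.25 there were 55 and 65. The lowest member held 7.34 UMIs per 10000 of *C3*, 6.81 of *Lcn2* and 8.01 of *Cp*, with *C4b* and *Saa3* at 0. The cell just outside held 28.1 of *Cp* and 19.1 of *Abi3bp*, 0.531 of *C3*, and no *Lcn2* or *Saa3*.

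**Figure D1:**
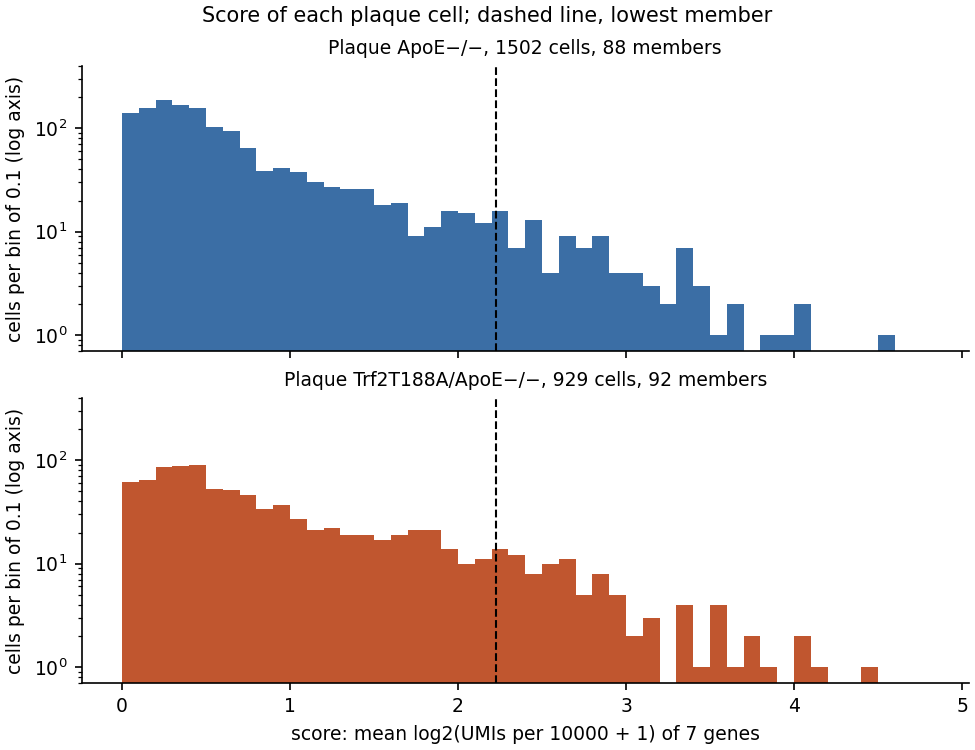
Number of plaque cells (log axis) by score, the mean of log2(UMIs per 10000 + 1) over 7 genes, in bins of 0.1, for the 1502 *ApoE-/-* cells (top) and the 929 *Trf2 T188A/ApoE-/-* cells (bottom), with a dashed line at the lowest member. Scores fall off without a gap at the line, which 88 and 92 cells reach.

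Members made up 5.86% of *ApoE-/-* plaque cells (4.73% to 7.17%) and 9.90% of *Trf2 T188A/ApoE-/-* plaque cells (8.06% to 12.01%). The *Trf2 T188A/ApoE-/-* library, which held fewer cells, thus supplied 51.1% of the members (43.6% to 58.6%). Among the other cells the score was also higher in that library, with a median of 0.550 against 0.430. Within the members the order was the opposite, 2.64 in *Trf2 T188A/ApoE-/-* and 2.73 in *ApoE-/-*. Without *Lcn2* in the score, members were 6.72% of *ApoE-/-* and 8.50% of *Trf2 T188A/ApoE-/-* plaque cells. These shares were the closest among the 7 scores that left out 1 gene. The plaque libraries shared no cell barcode.

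*C3* had a mean of 20.1 UMIs per 10000 in *ApoE-/-* members and 16.8 in *Trf2 T188A/ApoE-/-* members, against 1.15 and 2.18 in the other cells of each library. Those means rest on 5150 UMIs (5010 to 5293) and 4627 UMIs (4495 to 4762). *C4b*, which encodes the component of the classical and lectin routes that acts ahead of C3, had 6.00 and 5.42 in members and 0.718 and 1.10 in other cells. Both complement genes were present in nearly every member, with a *C3* UMI in 97.7% and 98.9% of them and a *C4b* UMI in 93.2% and 93.5%.

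*Lcn2* encodes lipocalin 2, which captures bacterial iron carriers. Its mean was 21.4 in *ApoE-/-* members and 25.3 in *Trf2 T188A/ApoE-/-* members, against 0.961 and 3.07 in other cells. Its spread between members was wide, with a median of 9.45 and a highest value of 139.2 in *ApoE-/-*, and a median of 18.2 and a highest value of 145.2 in *Trf2 T188A/ApoE-/-*. All 92 *Trf2 T188A/ApoE-/-* members held an *Lcn2* UMI, and 77 of 88 *ApoE-/-* members did. *Cp*, for the copper-carrying ferroxidase ceruloplasmin, went the other way, with 12.1 in *ApoE-/-* members, 7.71 in *Trf2 T188A/ApoE-/-* members, and 0.8997 and 0.992 in other cells.

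*Saa3* encodes an inducible serum amyloid A made outside the liver. Its means of 3.84 in *ApoE-/-* members and 8.69 in *Trf2 T188A/ApoE-/-* members came from few cells. A *Saa3* UMI was found in 18 of 88 *ApoE-/-* members (20.45%, 12.6% to 30.4%) and 34 of 92 *Trf2 T188A/ApoE-/-* members (37.0%, 27.1% to 47.7%), so the median member had none. A single *ApoE-/-* member, with 269.4 UMIs per 10000, held 79.8% of the *Saa3* of that group. Without the highest cell of each group the means were 0.785 and 7.16. Among contractile comparison cells, the 600 non-members with the highest mean of *Myh11*, *Acta2*, *Cnn1*, *Tagln* and *Smtn*, 4.94% (*ApoE-/-*) and 5.13% (*Trf2 T188A/ApoE-/-*) held a *Saa3* UMI, a level that free RNA in the droplets can give. Median depths were 26549.5 and 28318 UMIs in members and 22403 and 26425 in these comparison cells. With all cells thinned to 8000 UMIs, which left out 1 and 10 members and 3 and 9 comparison cells, the shares were 14.9% and 28.0% of members and 1.49% and 1.08% of comparison cells.

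*Abi3bp*, for an extracellular matrix protein, had 14.7 in *ApoE-/-* members, 9.27 in *Trf2 T188A/ApoE-/-* members, and 2.94 and 2.41 in other cells. It was the least selective of the 7 genes, since 77.3% and 82.1% of contractile comparison cells also held a UMI of it. *Cxcl12* encodes the chemokine that binds CXCR4 and ACKR3. It had 10.8 in *ApoE-/-* members, 8.11 in *Trf2 T188A/ApoE-/-* members, and 1.34 and 1.40 in other cells. The comparison cells held a *Cxcl12* UMI in 50.4% and 50.3% of cells, a *C3* UMI in 23.5% and 31.3%, and an *Lcn2* UMI in 5.43% and 17.9%. Thinned to 8000 UMIs, *C3* was found in 96.6% and 98.8% of members and 10.4% and 12.9% of comparison cells, and *Lcn2* in 86.2% and 97.6% of members and 1.99% and 8.06% of comparison cells.

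**Figure D2:**
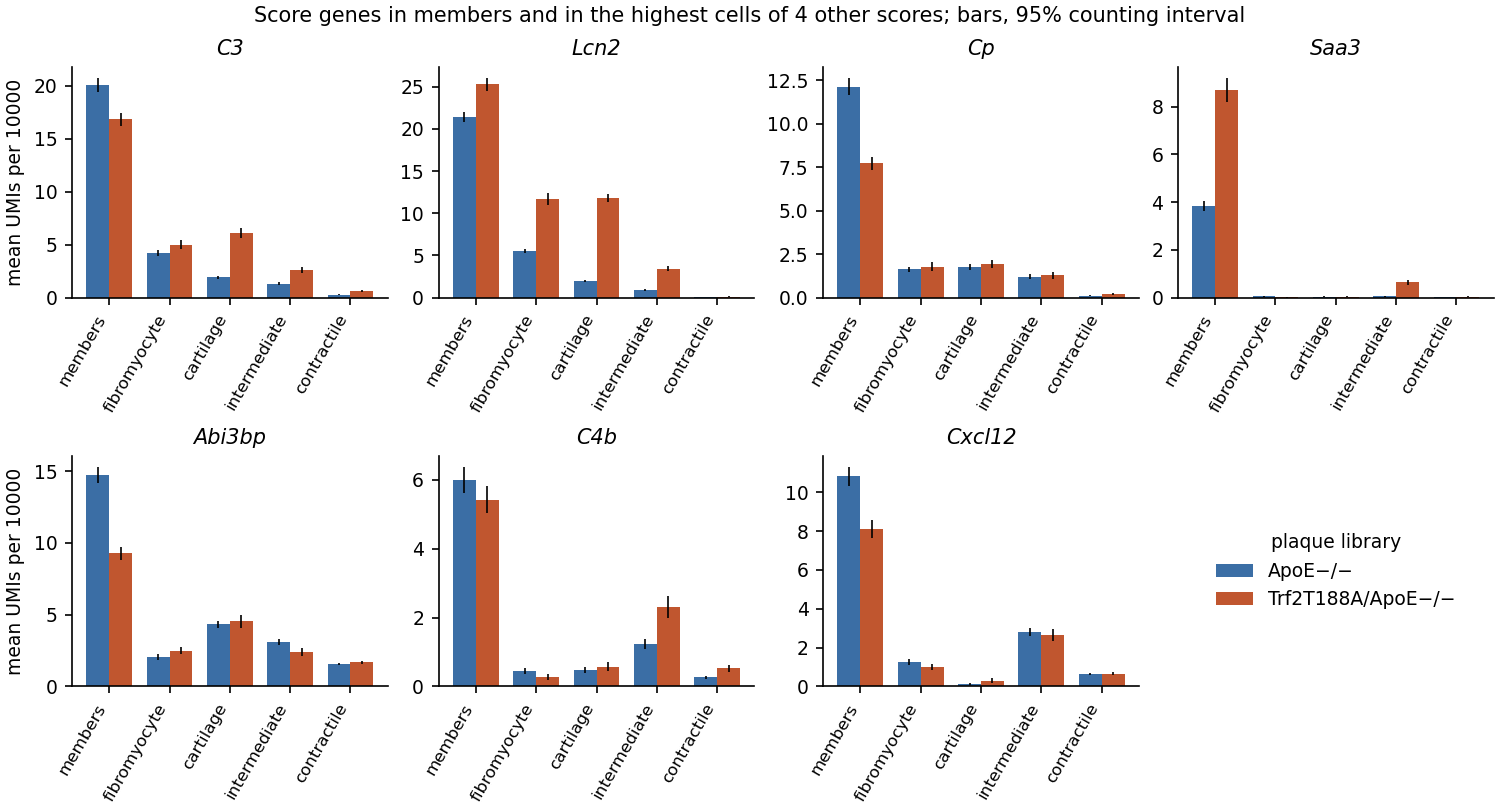
Mean UMIs per 10000 of each of the 7 score genes in members and in cells with the highest fibromyocyte, cartilage, intermediate and contractile scores, members left out of these, for the *ApoE-/-* (blue) and *Trf2 T188A/ApoE-/-* (orange) plaque libraries. Error bars are 95% counting intervals, and each gene is highest in members, which were chosen for it.

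The 7 genes were seldom all present in 1 cell. UMIs of 6 of them were found in 113 members and of all 7 in 40, while 26 members had 5 and 1 had 4. In the other plaque cells 6 genes were found in 6.62% and 7 in 0.355%. Since a 3′ kit counts transcript ends, values of different genes do not grow with transcript length, and the gene with the highest value in a cell can be named. It was *Lcn2* in 70 members, *C3* in 55, *Abi3bp* in 17, *Cp* in 16, *Cxcl12* in 14, *Saa3* in 6 and *C4b* in 2. *Lcn2* was the highest in 26 of 88 *ApoE-/-* members and 44 of 92 *Trf2 T188A/ApoE-/-* members.

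Across all 2431 plaque cells, every one of the 21 pairs of score genes had a positive Spearman rho, from 0.081 for *Saa3* with *Abi3bp* to 0.579 for *C3* with *Lcn2*, with a median of 0.323. Among the 180 members the median was 0.0045, and 11 of the 21 pairs were positive. The lowest was −0.44 for *Lcn2* with *Abi3bp*, which was −0.37 in *ApoE-/-* and −0.45 in *Trf2 T188A/ApoE-/-* members. Choosing cells by a sum of genes lowers the correlations among them, and these values, over cells of 2 libraries, are a description only. The score rose weakly with depth, with a rho of 0.174 against UMIs per cell over all plaque cells and 0.034 in members.

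With the UMIs of every cell divided at random into 2 equal parts, 153 of the 180 cells with the highest score in 1 part were also among the 180 highest in the other. In the part not used to choose them, their median score was 2.66 against 0.432 in the other cells. Mean *C3* in that part was 19.8 and 17.8 in the chosen *ApoE-/-* and *Trf2 T188A/ApoE-/-* cells, against 1.10 and 2.24 in the rest. These values bear on counting noise in the choice alone, since the same 7 genes chose the cells.

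The label of smooth muscle cells was set against reporter and marker genes. A Confetti UMI was found in 84.1% of *ApoE-/-* members (74.8% to 91.0%) and 88.0% of *Trf2 T188A/ApoE-/-* members (79.6% to 93.9%), against 83.5% and 85.1% of other cells and 93.1% and 94.4% of contractile comparison cells. Thinned to 8000 UMIs the shares were 59.8% and 74.4% in members, 68.1% and 74.1% in other cells and 77.4% and 82.3% in comparison cells. The summed level of the 4 reporters was 1.87 in *ApoE-/-* members and 4.98 in *Trf2 T188A/ApoE-/-* members, against 5.39 and 6.22 in other cells. The 14 *ApoE-/-* and 11 *Trf2 T188A/ApoE-/-* members without a reporter UMI had median scores of 2.76 and 2.67. Their median *Acta2* was 3.12 and 10.3, against 14.5 and 23.1 in members with a reporter UMI.

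The transcript of the transgene checks the genotype labels. It had 0 UMIs in all *ApoE-/-* cells, and 10 UMIs in 9 of 837 *Trf2 T188A/ApoE-/-* cells that were not members. None of the 92 *Trf2 T188A/ApoE-/-* members held one, which by the rule of 3 counts allows a share of up to 3.26%, above the 1.08% of those other cells, so members cannot be told apart from them by this transcript. Mouse *Terf2*, the gene for TRF2 itself, had a mean of 0.152 in both member groups, and 0.191 and 0.183 in other cells.

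Members were then compared with all other plaque cells of the same library, over 11505 genes outside the score with a UMI in at least 10% of members or other cells of either library. Since members were picked from these same cells, the comparison describes them and tests nothing. At a log2 ratio of at least 1 in both libraries, 23 genes were higher in members, 0.2% of those compared, and 29 had −1 or less, 0.252%. Of all genes 28.8% were higher and 39.2% lower in members of both libraries, whatever the size of the ratio, and the counts of the gene lists below are to be read beside these shares. A gene found in 10% of members alone passes the detection filter, which favours higher values. The median over all genes was −0.01 in *ApoE-/-* and −0.01 in *Trf2 T188A/ApoE-/-*. Ratios of the 2 libraries had a Spearman rho of 0.583 across genes, which are not independent replicates.

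*Serpina3n* was the highest of these genes by the ratio nearer 0. It encodes a secreted inhibitor of serine proteases of the acute phase. Its mean was 16.6 in *ApoE-/-* members against 1.80 in other cells, a log2 ratio of 2.66 (2.61 to 2.70), and 15.9 against 1.69 in *Trf2 T188A/ApoE-/-*, a log2 ratio of 2.65 (2.59 to 2.72). It was found in 93.2% and 90.2% of members. *Lum*, for the collagen-binding proteoglycan lumican, came next, with 69.9 against 9.46 (log2 ratio 2.76, 2.73 to 2.79) and 80.2 against 17.0 (2.18, 2.14 to 2.21). *Vcam1*, for an adhesion molecule that binds leukocytes, had 19.7 against 5.53 (1.66, 1.62 to 1.71) and 22.6 against 5.77 (1.80, 1.75 to 1.85). The median member held 8.67 UMIs per 10000 of *Serpina3n*, 62.1 of *Lum* and 13.7 of *Vcam1*, so these differences were not those of a few cells.

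**Figure D3:**
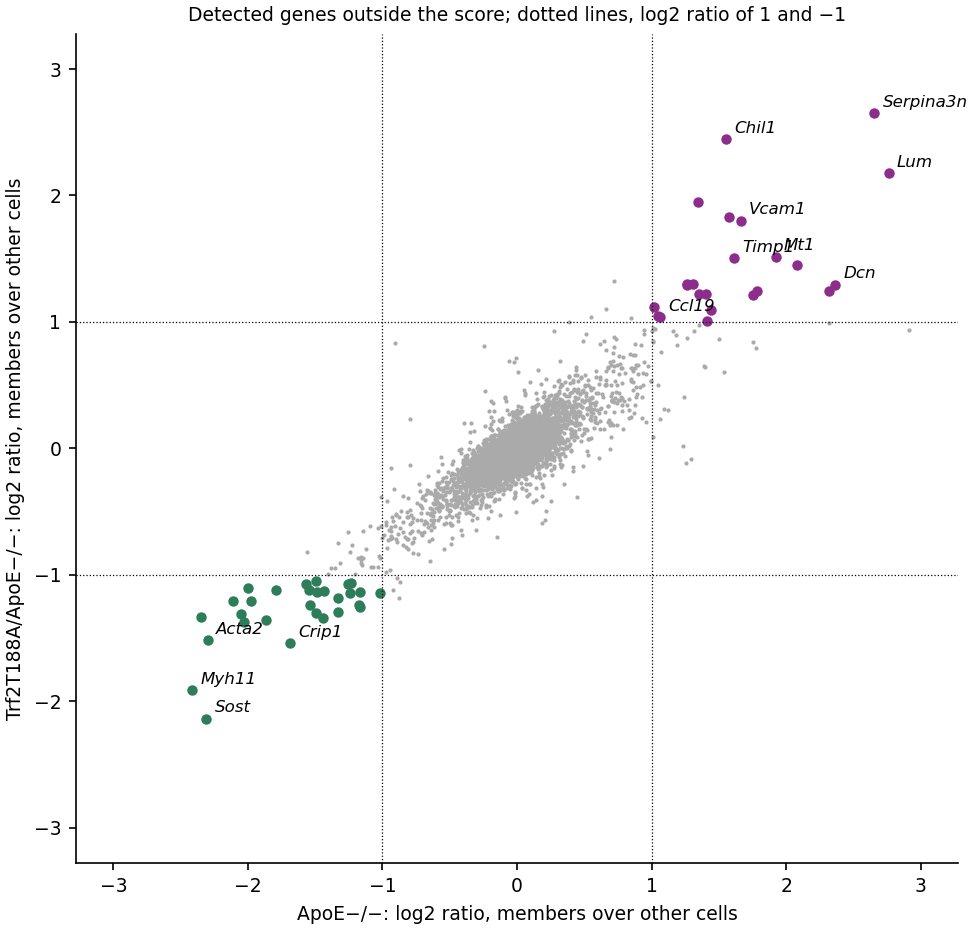
Log2 ratio of mean UMIs per 10000 plus 1, members over other plaque cells, for 11505 genes outside the score, in *ApoE-/-* (x axis) and *Trf2 T188A/ApoE-/-* (y axis). The 23 purple genes are at 1 or above and the 29 green genes at −1 or below in both libraries.

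Acute-phase genes were higher as a group. Of 29 listed, 24 were in the deposited data and 12 were detected outside the score. All 12 were higher in members of both libraries, with median log2 ratios of 0.85 and 0.60. Metallothioneins, small proteins that bind zinc and copper, had *Mt1* at 53.5 against 13.4 in *ApoE-/-* (log2 ratio 1.92) and 42.1 against 14.1 in *Trf2 T188A/ApoE-/-* (1.52). *Mt2* had log2 ratios of 2.08 and 1.45. *Lrg1*, for a leucine-rich glycoprotein of plasma, had 1.32 and 0.92. *Hp*, for the haemoglobin-binding protein haptoglobin, had 2.91 and 0.93, but 1 cell held 53.4% of its *ApoE-/-* member sum. The liver genes *Crp* and *Hamp* and the protease inhibitor gene *A2m* were at 0 in members.

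Beyond *C3* and *C4b*, the complement cascade was present in part. Of 27 further genes of complement activation, 25 were in the deposited data and 7 were detected. All 7 were higher in members of both libraries, with median log2 ratios of 0.31 and 0.23 and none past the fold in both. *Cfb* and *C2* among them passed the filter through members only, so that their being higher follows in part from the filter. *C1ra* and *C1s1*, for the C1 proteases that start the classical route, had log2 ratios of 1.26 and 0.88, and of 0.90 and 0.66. *Cfb*, for the protease of the alternative route, was low, with 0.254 and 0.193 in members and 0.013 and 0.019 in other cells. *Hc*, for C5, *C8a* and the lectin *Mbl2* were at 0 in members. None of 8 complement receptor genes was detected.

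Genes that restrain complement were higher in members in part. Of 13, 8 were detected. *Clu*, for clusterin, a chaperone that blocks the terminal complex, passed the fold in both libraries, with log2 ratios of 1.26 and 1.29. *Serping1*, for the inhibitor of the C1 proteases, had 1.54 in *ApoE-/-* and 0.60 in *Trf2 T188A/ApoE-/-*. Over all 8 the medians were 0.19 and 0.17, with 4 higher and 2 lower in both libraries. *Cd55*, counted among the 4, passed the filter through members only.

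Chemokine and cytokine genes were higher in members on average, some of them in a minority of members. Of 21 listed, 20 were in the deposited data, 13 were detected and 10 were higher in members of both libraries. The median log2 ratios were 0.55 and 0.62. *Cxcl1* and *Cxcl2*, for chemokines that attract neutrophils, had log2 ratios of 1.57 and 1.83, and of 1.35 and 1.95. A *Cxcl2* UMI was found in only 35.2% and 43.5% of members, and the median member had none. *Ccl19*, a ligand of CCR7, had 1.06 and 1.04. *Il6*, for interleukin 6, had 0.55 and 1.04, and in *Trf2 T188A/ApoE-/-* members 1 cell held 55.0% of the sum. Of 17 cytokine receptor genes 16 were detected and 13 were higher in both, led by *Osmr*, for the oncostatin M receptor, at 0.90 and 0.59. *Cxcr4*, for a receptor of CXCL12, was at 0 in members, and *Ackr3*, for the other receptor, had means of 0.720 and 0.878.

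Among 18 inflammatory transcription regulators, all detected, 12 were higher in members of both libraries and 2 lower, with medians of 0.16 and 0.14. *Cebpd*, for C/EBP delta, was the one past the fold in both, at 1.26 and 1.30. *Runx1* had 1.16 and 0.93. *Cebpb*, for the related C/EBP beta, had 0.54 and 0.32. Iron and oxidant defence genes had medians of 0.14 and 0.13, with 12 of 15 higher in both. *Fth1*, for the heavy chain of the iron store ferritin, had a mean of 173.5 in *ApoE-/-* members and 227.5 in *Trf2 T188A/ApoE-/-* members against 109.6 and 105.8 in other cells.

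Antigen presentation and interferon genes were modestly higher. All 10 detected genes of MHC class I presentation, of 10 listed, were higher in members of both libraries, with median log2 ratios of 0.41 and 0.29, led by the class I heavy chain gene *H2-K1* at 0.999 and 0.53. Of 18 detected interferon-stimulated genes 15 were higher in both, with medians of 0.16 and 0.07. *Ifitm3*, for a membrane protein that restricts virus entry, had 1.501 and 0.87. For adhesion and progenitor-state markers, 11 of 12 were higher in both, with medians of 0.73 and 0.50 and with *Ly6a*, for the surface antigen SCA1, at 1.75 and 1.21.

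The contractile genes moved the opposite way. All 20 were detected and all 20 were lower in members of both libraries, with medians of −1.51 and −1.03, and 10 were past the fold in both. *Myh11*, for smooth muscle myosin heavy chain, had 4.82 against 30.0 in *ApoE-/-* (log2 ratio −2.41, −2.49 to −2.33) and 5.89 against 24.98 in *Trf2 T188A/ApoE-/-* (−1.92, −1.99 to −1.84). *Acta2*, for smooth muscle actin, had 23.3 against 118.6 (−2.30) and 37.7 against 109.6 (−1.52). *Tagln* had −2.05 and −1.31, and *Cnn1* had −2.11 and −1.21. An *Acta2* UMI was found in 100% and 97.8% of members, some of which free RNA can give. *Sost*, for the WNT inhibitor sclerostin, was the lowest gene by the ratio nearer 0, at −2.31 and −2.14. *Crip1*, for a LIM domain protein, *Flna*, for the actin crosslinker filamin A, and *Thsd4*, for a protein of the fibrillin matrix, were also among the 15 lowest, at −1.69 and −1.54, −1.87 and −1.36, and −1.44 and −1.34.

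Fibromyocyte genes, the matrix programme of de-differentiated VSMCs, were higher in members, with medians of 0.71 and 0.53, 11 of 15 higher in both libraries and 4 past the fold. These 4 were *Lum*, *Dcn*, *Timp1* and *Prg4*. *Dcn*, for the proteoglycan decorin, had a mean of 96.0 against 17.9 in *ApoE-/-* (log2 ratio 2.36) and 67.0 against 26.7 in *Trf2 T188A/ApoE-/-* (1.29). *Mgp*, for a protein that inhibits calcification, had 1.18 and 0.90. The WNT antagonist genes *Sfrp2* and *Frzb* had 1.35 and 1.22, and 1.05 and 1.04. *Gas6*, a ligand of TAM receptor kinases, had 1.78 and 1.24. A score of *Timp1*, *Spp1*, *Thbs1*, *Col1a1*, *Fn1*, *Ltbp2* and *Tnfrsf11b* had a median of 2.12 in members and 1.12 in other cells and a rho of 0.435 with the member score over all plaque cells, while 14 of the 180 members were among the 180 cells highest for it.

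Cartilage genes did not move as a group, with medians of −0.04 and 0.09 over 12 detected. *Chil1*, for a secreted chitinase-like protein, passed the fold in both libraries at 1.55 and 2.45, but 9.09% and 31.5% of members held a UMI of it. Among the other lists, collagens and matrix proteases had medians of 0.31 and 0.21, lipid handling 0.09 and 0.16, and the TGF-beta pathway −0.14 and −0.14 with 10 of 15 lower in both. The transcription coactivator gene *Myocd*, a driver of the contractile programme, had −0.78 and −0.75. *Eln*, for elastin, had −1.33 and −0.75.

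Senescence markers were not higher in members as a group. Of 10 listed, 7 were detected, 3 were higher and 4 lower in both libraries, and the medians were −0.05 and −0.11. *Cdkn1a*, for the cell cycle inhibitor p21, had a mean of 1.20 in *ApoE-/-* members and 1.25 in *Trf2 T188A/ApoE-/-* members, against 1.46 and 1.503 in other cells. *Cdkn2a*, for p16 and p19, was found in 4.55% and 5.43% of members. It did not pass the detection filter of 10% and is not among the 7. Its log2 ratio of members to other cells did not have the same sign in both libraries. Cell cycle genes were low, with 5 of 16 detected and medians of −0.02 and 0.03, and the 3 detected genes of the STING pathway had medians of −0.01 and 0.03. *Apoe*, deleted in all plaque mice, had means of 0.108 and 0.201 in members and 0.038 and 0.042 in other cells.

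Genes of tissue dissociation and mitochondrial genes differed by small ratios as groups. The 16 dissociation-induced genes had medians of 0.05 and −0.25, with 4 higher and 7 lower in members of both libraries, and with *Fos* at −0.37 and −0.25 and *Atf3* at −1.09 and −0.61. Mitochondrially encoded genes had medians of −0.11 and −0.11, with 2 of 15 higher and 11 lower in both, more often lower than the 39.2% of all genes. Members had a median of 2.23% and 1.84% mitochondrial UMIs against 2.44% and 1.78% in other cells. The 5% of cells with the highest doublet scores of each library included 1 *ApoE-/-* and 6 *Trf2 T188A/ApoE-/-* members.

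Markers of neutrophils and lymphocytes were near 0 in members, those of macrophages were low in members and other cells alike, and the low endothelial sum was higher in members. Of 16 macrophage markers 2 were detected, the summed level was 1.95 in *ApoE-/-* and 2.93 in *Trf2 T188A/ApoE-/-* members against 2.04 and 2.47 in other cells, *Lgals3* made up 75.1% of it, and *Fcgr1* was at 0. None of the 6 neutrophil and 9 lymphocyte markers in the deposited data was detected. The summed neutrophil level was 0.012 and 0.025 against 0.003 and 0.004, all of it *Camp*, with *S100a8*, *S100a9* and *Csf3r* at 0. The summed lymphocyte level was 0.057 and 0.042 against 0.012 and 0.014, 90.6% of it *Cd4*, with *Cd3e*, *Cd3d*, *Cd3g* and *Ms4a1* at 0. Of 12 endothelial markers 3 were detected, with a summed level of 1.81 and 2.17 against 1.18 and 1.22, *Pecam1* the most abundant, and *Cdh5*, *Kdr*, *Tie1* and *Cldn5* at 0.

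Mesothelial, Schwann cell, and adipocyte and hepatocyte markers had 1 of 10, 2 of 8 and 1 of 9 detected. Of the 10 mesothelial markers 8 were in the deposited data. The summed mesothelial level was 0.110 and 0.094 against 0.117 and 0.093, most of it *Gpm6a*, with *Msln*, *Upk3b*, *Krt19* and *Wt1* at 0. Schwann cell markers summed to 3.19 and 5.02 against 7.32 and 7.64, 89.3% of it *Ncam1*, and adipocyte and hepatocyte markers to 0.719 and 1.33 against 2.17 and 1.92, 98.1% of it *Fabp4*, with *Adipoq*, *Alb* and *Ttr* at 0.

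Adventitial fibroblast markers were higher in members, more so in *ApoE-/-*. Of 14, 11 were detected and 10 were higher in both libraries, with medians of 0.83 and 0.21. The summed level was 23.5 in *ApoE-/-* and 14.7 in *Trf2 T188A/ApoE-/-* members against 12.2 and 12.3 in other cells, *Gsn* made up 52.9% of it, and no marker was at 0. *Pdgfra*, for a growth factor receptor of fibroblasts, had log2 ratios of 0.86 and 0.53, and *Clec3b* had 0.83 and 0.24. More than 7 of the 14 markers were found in 11 *ApoE-/-* and 4 *Trf2 T188A/ApoE-/-* members, 12.5% and 4.35%, against 2.62% and 3.23% of other cells. The part of such cells in the other differences was not tested. With only cells that held a Confetti UMI, 27 genes were higher and 35 lower in members of both libraries, and 21 and 28 of these were among the 23 and 29 above.

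Clusters formed without the 7 score genes placed members mainly in 1 group of cells. Of 14 clusters, cluster 5, led by *Lum*, *Serpina3n*, *Cxcl2*, *Mt2*, *Cxcl1* and *Vcam1*, held 107 members, 59.4% of all (51.9% to 66.7%), and these were 54.9% of its 195 cells (47.6% to 62.0%). Cluster 3, led by *Mt1*, *Mt2* and *Itih4*, held 33 members, 10 *ApoE-/-* and 23 *Trf2 T188A/ApoE-/-*. Cluster 1, led by *Timp1*, *Spp1* and *Thbs1*, held 18, and cluster 8, led by *Col2a1* and *Ibsp*, held 9. Clusters 0 and 2, with contractile genes among their leading genes, held none among 461 and 287 cells, which allows up to 0.651% and 1.05%, and cluster 4, led by *Mylk4* and *Myh11*, held 2 among 237. Cluster 10, led by *Sncg* and *Pln*, held none among 70, which allows up to 4.29%.

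**Figure D4:**
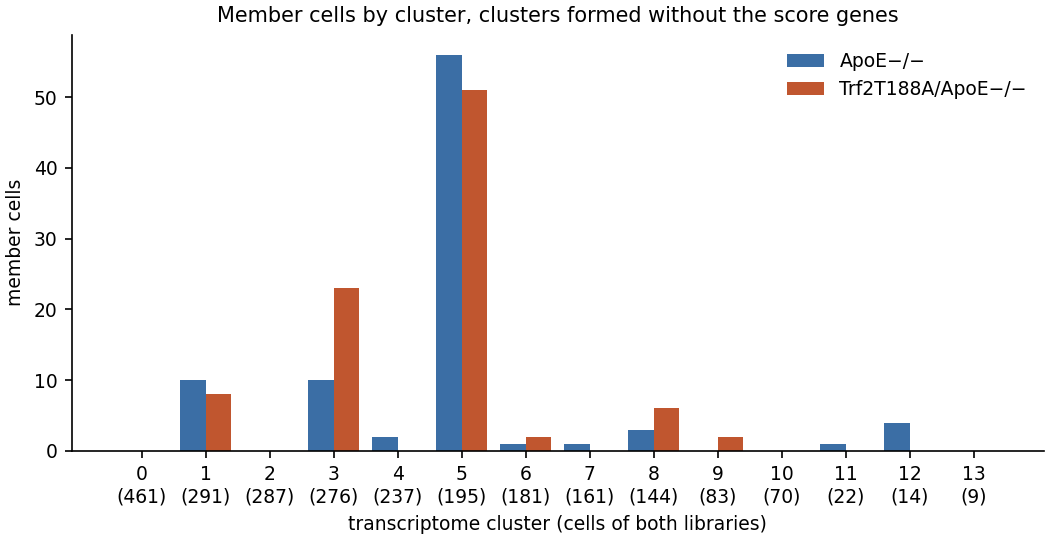
Number of members from the *ApoE-/-* (blue) and *Trf2 T188A/ApoE-/-* (orange) plaque libraries in each of 14 transcriptome clusters formed without the score genes, with the cells of each cluster in brackets. Cluster 5 holds 56 and 51 members, and cluster 3 holds 10 and 23.

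Members of different clusters differed in genes outside the score. Median *Acta2* was 67.8 in the members of cluster 3, 12.03 in those of cluster 5, 6.46 in those of cluster 1 and 1.47 in those of cluster 8. Members of cluster 3 thus held the score genes together with contractile transcripts, with median *Lcn2* at 13.4 and *C4b* at 4.86. Those of cluster 8 had median *Col2a1* at 105.7 and *Chil1* at 78.9, the highest median *Lcn2*, 32.9, and little *Cxcl12*, 0.295. Those of cluster 1 had median *Spp1* at 22.6 and *Lum* at 109.6. In cluster 12, with 14 *ApoE-/-* cells and no *Trf2 T188A/ApoE-/-* cell, 4 cells were members. Their medians were 40.5 for *Cxcl12*, 41.4 for *Serping1*, 1.06 for *Acta2* and 0 for *Lcn2*, and 7.14% of the cluster's cells held a reporter UMI. A cluster from 1 library cannot be told apart from a property of that library.

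Within cluster 5, the 56 *ApoE-/-* and 51 *Trf2 T188A/ApoE-/-* members differed from the 51 and 37 cells of the same cluster that were not members. Median *Lum* was 76.7 and 81.8 in members and 26.5 and 25.3 in the others, and median *Serpina3n* 11.5 and 7.58 against 0.933 and 2.42. Median *Vcam1* was 16.2 and 15.9 against 5.74 and 6.85. *Tagln* was lower, with 8.82 and 6.11 against 21.0 and 26.9, while *Acta2* was lower only in *ApoE-/-*, with 10.9 against 16.9, and had 14.9 against 14.3 in *Trf2 T188A/ApoE-/-*.

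Between genotypes within the members, 5 of 11356 genes had a log2 ratio of *Trf2 T188A/ApoE-/-* over *ApoE-/-* of at least 1, 0.044%, and 5 had −1 or less, also 0.044%. The median over all genes was −0.004. The higher genes were *Chil1*, *Eln*, *Ptgs2*, *Saa3* and the Confetti reporter tdimer2-12. The lower genes were *Pcdh9*, *Col2a1*, *Ifi27l2a*, *Hp* and *Igfbp4*. Several of them rested on few cells, as the single-cell shares of their sums show. In the other cells of the *ApoE-/-* and *Trf2 T188A/ApoE-/-* libraries, tdimer2-12 had means of 0.343 and 0.679, and *Saa3* 0.035 and 0.073. This contrast in other cells is not given here for the rest of the 10. None of the 10 was past the fold as a difference of mean log2(value + 1), where *Pcdh9* had −0.86, *Ifi27l2a* −0.57, *Igfbp4* −0.92 and *Ptgs2* 0.35. With only Confetti-positive cells *Chil1*, *Saa3*, tdimer2-12 and *Pcdh9* stayed past it and the other 6 did not. That filter keeps every cell with a tdimer2-12 UMI, so it is no independent check on this reporter. With cells thinned to 8000 UMIs tdimer2-12 went from 1.07 to 0.28. The calls of single genes between genotypes thus depended on the measure and on the cells used.

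*Saa3* is a score gene, so its difference depends on how the members were chosen, and the other 4 are outside the score. *Eln* was the higher gene spread over the most cells. Its mean was 5.22 in *ApoE-/-* and 12.4 in *Trf2 T188A/ApoE-/-* members, a log2 ratio of 1.10 (1.01 to 1.20), and 1.13 without the highest cell of each group. In cluster 5 alone it was 0.81, and it fell to 0.34 with the same share of cells taken from each library and to 0.41 without *Cp* in the score, so its size depended on the choice of members. *Ptgs2*, for the prostaglandin-forming enzyme COX2, had 0.935 and 3.10 (1.08, 0.95 to 1.22), 0.75 without the highest cells and 1.83 in cluster 5. *Saa3* had 1.002 (0.90 to 1.10), 2.19 without the highest cells and 2.79 in cluster 5. *Chil1* had 2.08 and 10.97 (1.956, 1.86 to 2.05), but 1 cell held 86.9% of the *ApoE-/-* sum, and within cluster 5, where means were 0.230 and 0.287, the ratio was 0.07.

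Among the lower genes, *Pcdh9*, for an adhesion protein of the protocadherin family, averaged 3.85 in *ApoE-/-* and 0.779 in *Trf2 T188A/ApoE-/-* members, a log2 ratio of −1.45 (−1.59 to −1.30) and −1.33 in cluster 5. *Ifi27l2a*, an interferon-stimulated gene, had 3.14 and 0.807 (−1.20), and −0.85 in cluster 5. *Igfbp4*, for a binding protein of insulin-like growth factors, had 8.52 and 3.65 (−1.04), and −0.71 in cluster 5. *Col2a1*, for cartilage collagen, had −1.29, but 1 cell held 62.6% of the *ApoE-/-* sum and the ratio was −0.53 without the highest cells. Its direction turned to 3.19 when the score was formed without *C4b*. *Hp* went from −1.14 to −0.57 without the highest cells.

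Other named genes of this contrast were under the fold in the log2 ratio of means over all members. *Ccn2*, for a matricellular growth factor, averaged 20.2 in *ApoE-/-* and 39.3 in *Trf2 T188A/ApoE-/-* members (0.93). *Spp1*, for osteopontin, averaged 31.1 and 58.7 (0.90, but 1.09 in cluster 5 and −0.05 with 120 members). As a difference of mean log2(value + 1), *Spp1* had 1.24, past the fold. *Nfkbia*, for an inhibitor of NF-kB that NF-kB itself induces, averaged 7.31 and 13.2 (0.77). *Serping1* had 6.80 and 3.14 (−0.92, but −0.53 in cluster 5 and −0.40 with only Confetti-positive cells). The matrix gene *Fbln1* had 3.38 and 1.40 (−0.87). Of the score genes, *Lcn2* had 0.23 and *Saa3* 1.002, while *C3*, *C4b*, *Cxcl12*, *Cp* and *Abi3bp* had −0.24, −0.13, −0.37, −0.59 and −0.61. The value of *Lcn2* was 0.07 in cluster 5, −0.11 with 120 members and 0.81 as a difference of mean log2(value + 1). All 7 detected genes of complement activation were lower in *Trf2 T188A/ApoE-/-* members, with a median of −0.17, and 9 of 10 MHC class I genes were lower, with a median of −0.07. Some of the complement directions turned under alternatives. *C2* was 0.12 without *Cxcl12* in the score, and *Cfb* was 0.05 with the same share of each library taken. *C1s1* was 0.04 with members chosen from 1 part of the UMIs and values from the other. Across all genes 47.7% were higher.

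Contractile genes were higher in *Trf2 T188A/ApoE-/-* members, 17 of 19 detected, with a median of 0.32. *Acta2* had 0.67 and *Tagln* 0.59. With only cells of at least 2000 genes *Acta2* was 0.38, and as a ratio of summed UMIs *Tagln* was 0.24. Cluster 3, whose members had the highest median *Acta2* of those above, supplied 23 *Trf2 T188A/ApoE-/-* and 10 *ApoE-/-* members, and within cluster 5 alone *Acta2* had 0.28 and *Tagln* −0.08. Adventitial fibroblast markers were lower in *Trf2 T188A/ApoE-/-* members, 10 of 11, with a median of −0.40. Mitochondrially encoded genes were lower in 14 of 15, with a median of −0.23, and their summed level was 252.3 in *ApoE-/-* and 214.4 in *Trf2 T188A/ApoE-/-* members against 272.6 and 207.8 in other cells. The part of these in the other differences between the member groups was not tested.

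After carotid ligation, a setting with injury but without a plaque, few cells reached the score of the lowest plaque member. These were 8 of 4967 control cells (0.161%, 0.0696% to 0.317%) and 1 of 5392 Trf2T188A cells (0.0185%, 0.00047% to 0.103%). Median depth there was 8631 and 11153 UMIs, and with all plaque and ligation cells thinned to 5000 UMIs, 10 of 4642 control and 4 of 5238 Trf2T188A cells deep enough reached the threshold set in thinned plaque cells. The 8 control cells had median *Cxcl12* of 15.4, *Cp* of 13.1, *Lcn2* of 5.31 and *Lum* of 62.4, with *Saa3* at 0. Their median *Serpina3n* was also 0, against 8.67 in plaque members. The experiments differed in genotype, diet, vessel, processing by the authors and depth, and these cannot be told apart. The ligated libraries shared 10 barcodes with each other and at most 2 with a plaque library.

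The score genes lie on 6 chromosomes, with *C3* and *C4b* on chromosome 17. Since they were chosen together and several are known targets of cytokine-activated factors, their promoters were searched on both strands for the NF-kB consensus decamer, the C/EBP consensus decamer, the STAT site TTCNNNGAA and the sequence TATAAA. RefSeq promoters of 300 bases (GRCm38.p6, 250 before and 50 after the start) were listed for 5 of the 7 genes, *C3*, *Lcn2*, *Cp*, *Saa3* and *Cxcl12*. None held the NF-kB or C/EBP decamer or the STAT site, which 8.18%, 0.0629% and 8.47% of all 27025 promoters held. TATAAA was in that of *C3* only, against 14.2% of all, and there began at base 15 after the annotated start, not before it where a TATA box lies. Of the 23 genes higher in members, 15 had a promoter listed, and the NF-kB decamer was in 5 of these, *Chil1*, *Cxcl1*, *Cxcl2*, *Sfrp2* and *Tmem176a*, against 10.2% of the 8874 promoters of the genes compared. These genes were chosen after their values were seen, and a match of letters is a description of the sequence and no site of binding. The promoters of *C3* (chr17:57228087-57228386, minus strand) with TATAAA in capitals, and of *Cxcl1* (chr5:90890995-90891294, plus strand) and *Cxcl2* (chr5:90903649-90903948, plus strand), neighbouring genes that were both higher in members, with the NF-kB decamer in capitals on both strands, overlapping by all but 1 base, are shown to place the motifs.
C3: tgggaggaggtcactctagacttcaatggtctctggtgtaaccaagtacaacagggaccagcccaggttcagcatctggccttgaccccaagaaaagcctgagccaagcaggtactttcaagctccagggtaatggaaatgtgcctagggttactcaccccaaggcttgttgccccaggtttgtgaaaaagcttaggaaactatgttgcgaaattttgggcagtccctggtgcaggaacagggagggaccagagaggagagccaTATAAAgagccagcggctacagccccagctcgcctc
Cxcl1: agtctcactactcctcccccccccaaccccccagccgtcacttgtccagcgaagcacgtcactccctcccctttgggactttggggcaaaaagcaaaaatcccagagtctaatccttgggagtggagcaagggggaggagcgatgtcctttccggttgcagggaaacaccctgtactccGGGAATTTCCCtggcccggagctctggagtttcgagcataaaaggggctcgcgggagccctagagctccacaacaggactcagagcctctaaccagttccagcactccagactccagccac
Cxcl2: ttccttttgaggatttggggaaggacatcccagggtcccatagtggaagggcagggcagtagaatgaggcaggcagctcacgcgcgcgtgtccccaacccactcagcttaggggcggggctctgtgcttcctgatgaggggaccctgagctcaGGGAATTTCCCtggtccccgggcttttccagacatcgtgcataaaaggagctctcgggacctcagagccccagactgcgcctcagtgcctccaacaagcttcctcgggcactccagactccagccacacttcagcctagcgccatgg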

How the data were processed

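The deposited signal of each of 4 libraries (10x 3′ v3) was made by the authors, by the versions in the deposited records, with Cell Ranger (7.0.0 for plaque, 6.1.2 for ligation) and Seurat (4.3.0 and 3.2.1) on GRCm38, as UMIs per 10000 UMIs of the cell, after removal of cells with few genes or many mitochondrial UMIs and, in plaques, of clusters without Confetti expression. For ligation the paper's supplement gives Seurat 4.3.0 instead. All deposited values were within 0.01 of a whole number of UMIs, so counts were recovered. The fewest genes in a plaque cell were 1531 (*ApoE-/-*) and 1056 (*Trf2 T188A/ApoE-/-*), with 37869934 and 24064570 UMIs in all. The paper gives a lower minimum of genes per cell for *Trf2 T188A/ApoE-/-* than for *ApoE-/-* plaques, so the filter differed between the groups compared. Fewer than 2000 genes were found in 7 *Trf2 T188A/ApoE-/-* and 0 *ApoE-/-* members. No further cells were removed, doublets included, and free RNA was not subtracted. Whether the authors removed doublets is not stated. Members and gene lists were chosen with earlier results of these data known.

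A gene was detected with a UMI in 10% of cells of a group compared, and the fold was a log2 ratio of 1 with 1 added to each mean. Genes named were the score genes, up to 5 per list, the 20 highest and 15 lowest in members, the 12 highest and lowest between genotypes, and a few set genes, and other genes were chosen after their values were seen. The fold rule was tested on simulated data with known changes. Simulated cells of a class differed only by depth and counting noise, and members were not chosen from the simulated counts. The simulation thus does not bear on genes that rest on few cells or on the choice of members. Clusters used Seurat 5.3.0 in R 4.3.3 (2000 variable genes, 18 components, resolution 0.9), doublet scores Scrublet in scanpy 1.11.5, and all else Python 3.11.15 with numpy 2.4.6, scipy 1.17.1 and pandas 2.3.3. Alternatives changed depth, score genes, number of members, cells used, ratio, filter and cluster resolution.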

Additional observations from a re-analysis of the deposited data

How the results depend on the processing

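No paired analysis was possible because each genotype had 1 library. For 37 named genes outside the score past the fold between members and other cells, all 777 values under 21 alternatives kept their direction and 725 stayed past the fold. Adding 0.1 in place of 1 and dropping the detection filter can neither turn a direction nor bring a ratio under the fold. Their values are counted here and in the next sentence, but are no check. For the 9 genes outside the score past the fold between genotypes, 185 of 189 values kept their direction and 121 stayed past it. The 4 others were *Col2a1*, at 3.19 without *C4b* in the score, 0.0802 with 120 members and 0.11 as a difference of mean log2(value + 1), and *Hp*, at 0.25 as that difference. The cause was not tested. *Eln*, at 1.10 between genotypes, was 0.34 with the same share of each library taken.

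Counts between genotypes changed, and so did the genes behind them. In place of 5 genes higher in *Trf2 T188A/ApoE-/-* members there were 3 with cells thinned to 8000 UMIs (2 of them among the 5), 3 without *Cp* (2) and 10 without *C4b* (4) in the score, 3 with only Confetti-positive cells (3), and 3 without clusters almost wholly of 1 library (3), an alternative chosen after seeing the data. In place of 5 lower genes there were 9 without *C3* (4), 10 without *Lcn2* (3), 3 without *Cp* (3), 2 without *Abi3bp* (2), 2 without *C4b* (2) and 3 without *Cxcl12* (2), 2 with 120 members (1) and 3 with 240 (2), 8 without the 5% of cells with the highest doublet scores (5), and 1 with only Confetti-positive cells (1). With 0.1 in place of 1 added to means, these counts were 33 and 57, all 10 genes included, and those of members against other cells, 23 and 29, were 147 and 127. As a difference of mean log2(value + 1), the counts between genotypes were 1 and 0, with none of the 10 genes among them, and 18 genes were lower in members, 17 of them among the 29.

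Taking the same share of each library made 38.3% of members *Trf2 T188A/ApoE-/-*, as that choice fixes, in place of 51.1%. Without *Lcn2* in the score 43.9% of members were *Trf2 T188A/ApoE-/-*. At resolution 0.45, 59.4% of members in 1 cluster became 70.6%. With cells thinned to 5000 UMIs, the threshold set in thinned plaque cells was 2.103 in place of 2.225. With both changes, 14 ligation cells passed in place of 9. The 1 library per genotype and the unstated number of animals limit every genotype difference, and free RNA limits low values.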
